A study of Homo sapiens with 6 samples.

Results

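Promoter methylation was examined for 7 genes whose proteins write, maintain or remove cytosine methylation: DNMT1, UHRF1, DNMT3A, DNMT3B, TET1, TET2 and TET3. A CpG was taken when it lay within 1.5 kb of one of 8 start positions given in hg19 (DNMT3A has an upstream and an internal start) and had at least 10 reads in 2 or more libraries of each group. This gave 389 CpGs of the 686608 in the data that meet the same read requirement, and 211 of the 389 had at least 10 reads in all 6 libraries. The CpGs fell in 7 of the 8 windows and 6 of the 7 genes, because the window at the TET3 start held none.

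The libraries came from PC-3, an established androgen-independent line derived from a prostate carcinoma metastasis. Cells in 3 libraries had received S-adenosylmethionine (SAM) at 160 µM, and those in the other 3 had received PBS as vehicle, each for 5 days. Bisulfite treatment converts unmethylated cytosine so that it is read as T, while methylated cytosine is still read as C, and the methylation level of a CpG is the percent of its reads with C. The comparison asks whether the promoters of the methylation machinery changed when its methyl donor was added. All 6 libraries are of 1 cell line, and no expression values were analysed here.

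SAM is the methyl donor that DNA methyltransferases use. DNMT1 copies methylation onto the new strand after replication and is brought to hemimethylated CpGs by UHRF1, whereas DNMT3A and DNMT3B place methylation at CpGs that lacked it. TET1, TET2 and TET3 oxidise 5-methylcytosine, the first step of active demethylation. Promoters in CpG islands, stretches rich in CpG, are usually unmethylated in cells, and methylation over them goes with silencing. Bisulfite reads do not separate 5-methylcytosine from the 5-hydroxymethylcytosine that TET enzymes make.

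The sequences below show what the bisulfite lists saw at 4 starts, chosen because UHRF1 has the most completely listed promoter, the internal DNMT3A start has the highest window mean, and TET3 could be described only through them. Each run is the 250 bases before a RefSeq start in GRCh38.p14, read 5′ to 3′ on the gene's strand, and capitals mark each CpG listed in at least 1 library (a C at the end has its G just past the run). The runs are chr19:4909894-4910143 on the plus strand for UHRF1, chr2:25252316-25252565 on the minus strand for the internal DNMT3A start, and chr2:73984660-73984909 and chr2:74002442-74002691 on the plus strand for TET3.
UHRF1: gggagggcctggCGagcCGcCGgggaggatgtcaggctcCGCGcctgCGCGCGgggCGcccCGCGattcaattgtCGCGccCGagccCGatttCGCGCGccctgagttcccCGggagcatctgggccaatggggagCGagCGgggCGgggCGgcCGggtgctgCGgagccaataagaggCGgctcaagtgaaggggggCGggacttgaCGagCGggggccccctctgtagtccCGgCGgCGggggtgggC
DNMT3A internal: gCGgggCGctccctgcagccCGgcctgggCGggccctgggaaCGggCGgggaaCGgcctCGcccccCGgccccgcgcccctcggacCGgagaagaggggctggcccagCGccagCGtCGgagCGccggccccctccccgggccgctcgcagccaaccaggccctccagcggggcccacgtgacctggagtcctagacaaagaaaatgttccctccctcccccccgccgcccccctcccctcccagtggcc
TET3 first: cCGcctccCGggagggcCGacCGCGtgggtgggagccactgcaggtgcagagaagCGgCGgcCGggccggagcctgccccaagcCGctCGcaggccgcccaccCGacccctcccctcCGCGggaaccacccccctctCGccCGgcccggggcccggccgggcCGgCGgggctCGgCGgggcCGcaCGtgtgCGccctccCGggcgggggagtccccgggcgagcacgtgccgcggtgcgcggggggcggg
TET3 second: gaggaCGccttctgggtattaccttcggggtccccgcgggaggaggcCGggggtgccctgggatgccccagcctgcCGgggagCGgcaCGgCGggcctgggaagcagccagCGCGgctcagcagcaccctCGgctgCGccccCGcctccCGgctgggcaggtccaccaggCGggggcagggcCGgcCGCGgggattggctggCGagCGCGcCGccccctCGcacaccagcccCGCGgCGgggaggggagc

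The RefSeq table held 18 promoter sequences of these 7 genes, and a sequence was tied to hg19 where the spacing of listed CpGs matched its CG dinucleotides at a single position. This placed 5 sequences (2 of UHRF1, 1 each of DNMT3A, TET2 and TET3) with at least 70% of their CGs listed. Another 2, the internal DNMT3A start and the first TET3 start, matched at a single position with 14 of 28 and 25 of 45 CGs listed. The match for the internal DNMT3A start fell on 2:25475184, the start given for that window. The other placed DNMT3A start, 2:25564794, and the placed TET2 start, 4:106068033, lay downstream of the starts given for their windows. Some CpGs described as downstream of those windows' starts therefore lie upstream of a placed one. For UHRF1, DNMT3A and TET3 the placed starts were 223, 89610 and 17782 bases apart in hg19, exactly as in RefSeq. The sequences of DNMT1, DNMT3B and TET1 were not placed. Over the 300 bases from 250 before to 50 after the start, the first UHRF1 sequence shown has 40 CGs, all listed, against a median of 14 over 35116 RefSeq promoters. At least 40 CGs occur in 7.61% of those promoters.

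Coverage summed over listed positions ranged from 33056018 to 183523792 reads per library, and SAM replicate 2 and control replicate 2 had the least. No label names a batch, and the libraries were divided by read coverage into 2 sets, called batches here, each with libraries of both groups: batch A has control replicates 1 and 3 beside SAM replicate 1, and batch B has control replicate 2 beside SAM replicates 2 and 3. Over CpGs in all 6 libraries, log2 coverage correlated at 0.569 to 0.908 inside and 0.161 to 0.804 between these batches, as a description across CpGs, so the ranges overlap and the division is not sharp. Whether replicates came from separate cultures is not stated in the labels, so p-values measure only the spread between these libraries, which may be technical. Window levels are means over the CpGs listed in all 6 libraries, each with equal weight. Intervals and limits cover counting error only, because amplification copies cannot be told from independent molecules. Reads given for a whole window are summed over its CpGs, so a read that covers several CpGs is counted at each.

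Methylation was low in most of the windows in PC-3 cells, with and without SAM, and higher at DNMT3B and the internal DNMT3A start. The windows of DNMT1, UHRF1, the upstream DNMT3A start and TET1 held only CpGs downstream of the start. Over both groups the window mean was 0.103% at DNMT1, 0.130% at TET2, 0.368% at the upstream DNMT3A start, 0.678% at UHRF1 and 0.939% at TET1. It was 4.38% at DNMT3B and 8.79% at the internal DNMT3A start. Of the neighbours in this order, only TET1 and DNMT3B had ranges over the 6 libraries that did not overlap. The internal DNMT3A window was above the DNMT3B window in 6 of 6 libraries, although their ranges overlapped. With reads pooled over the window that order turned in 6 of 6 libraries, to 3.76 to 9.29% at the internal DNMT3A start and 8.94 to 23.3% at DNMT3B. The median over the 7 windows was 0.678%, against 25.1% over 19538 tiles of 3 kb that held at least 5 CpGs in all 6 libraries.

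SAM and control libraries overlapped in each of the 7 windows. Separate groups have every SAM library on one side of every control library. They were thus found in 0 of 7 windows, against 9.45% of the 3 kb tiles and 8.32% of those with a mean under 10%. In edgeR's quasi-likelihood test over tiles and windows together, 0 of 7 windows had an adjusted p under 0.05 (each adjusted p = 1), and 0% of the 19424 tested were called. No window had an unadjusted p under 0.05 with edgeR or limma, and over all tiles 550 did with edgeR and 710 with limma. The median difference, SAM minus control, was -0.0240 percentage points over the windows and 0.0161 over the tiles. Regardless of sign, it had a median of 0.168 points over the windows and 0.357 over the 8462 tiles with a mean under 10%. With 3 libraries against 3 the exact permutation test of a single window cannot give a p under 0.10. In simulated data with a spread between libraries, edgeR recovered no changed feature, so an absence of calls does not show an absence of change. Inside batch A and batch B, in that order, the difference was 0.00211 and 0.116 points at DNMT1, -0.251 and -0.287 at the upstream DNMT3A start, and -1.32 and -0.510 at the internal one. It was -0.532 and -0.133 at DNMT3B, 0.9895 and -0.0657 at TET1, and 0 and 0.389 at TET2, so TET1 changed sign between the batches, as did UHRF1.

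**Figure D1:**
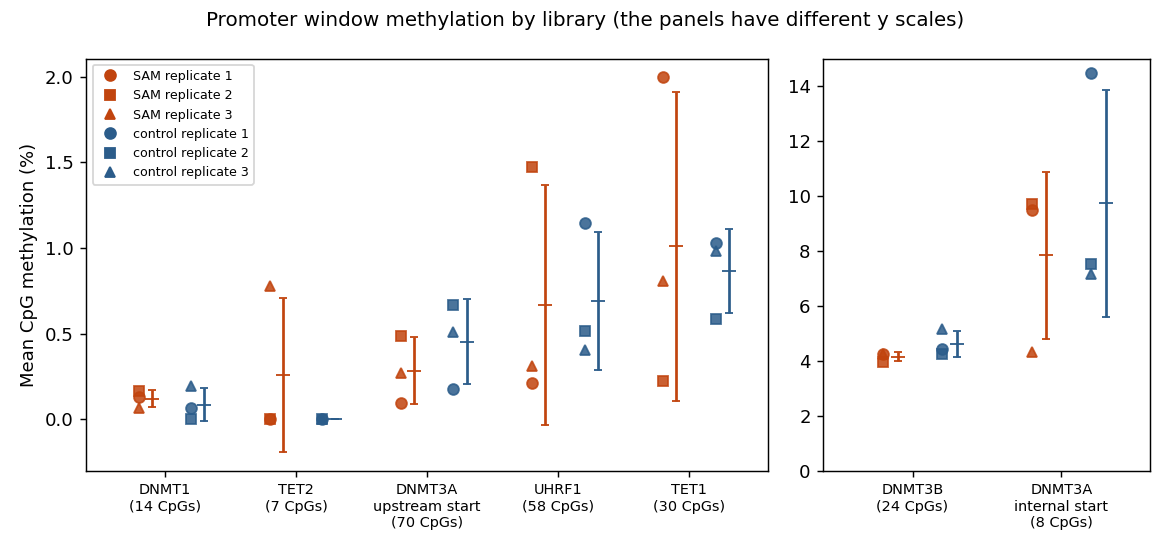
Mean methylation in percent of each promoter window, over CpGs listed in all 6 libraries, with 1 point per library and the group mean with its SD (n = 3) beside the points. The left panel has the 5 windows under 1% and the right panel, on its own scale, DNMT3B and the internal DNMT3A start, and SAM and control points overlap in each window.

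DNMT1, the maintenance methyltransferase, and TET2 had the lowest window means, and DNMT1 was below TET2 in 1 of 6 libraries. At the DNMT1 start (chr19:10304255-10307255, minus strand, start 10305755), 25 CpGs were taken, all 31 to 394 bases downstream of the start (distances run in the direction of transcription, and negative ones are upstream). The 14 in all 6 libraries averaged 0.130, 0.166 and 0.0660% for SAM replicates 1 to 3. Control replicates 1 to 3 had 0.0640, 0 and 0.192%. The control values lay on both sides of the SAM values. The difference was 0.0352 points (standard error 0.0636, exact two-sided permutation p = 0.60). In control replicate 2, 0 of 646 reads summed over the 14 CpGs were methylated, at a median of 35.5 reads per CpG. Taken as independent, they would allow a level of up to 0.464%. Neighbouring CpGs can be covered by the same reads, so this limit can be too low.

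DNMT1 was not wholly free of high values. At its most methylated CpG, 227 bases downstream, 34.1% of 41 reads were methylated in control replicate 3 and 0 of 20 to 119 reads in the 4 other libraries that list it. In that library the plus strand read as 100% of 14 reads and the minus strand as 0 of 27. A CpG at 136 bases reached 14.7% of 34 reads in control replicate 1 alone.

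UHRF1 (chr19:4908010-4911010, plus strand, start 4909510) had 89 CpGs, 49 to 876 bases downstream of its start, of which 50 were at 0 in every library. Over 58 CpGs its level was 0.212, 1.47 and 0.313% in SAM replicates 1 to 3. Control replicates 1 to 3 had 1.15, 0.516 and 0.405%. One library in each group, SAM replicate 2 and control replicate 1, stood above the other 4. The difference was -0.0240 points (standard error 0.466, exact permutation p = 1.0). Batch A gave -0.565 points and batch B gave 0.377.

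Those 2 libraries each held a strongly raised CpG. The CpG at 144 bases, the window's highest mean, read as 71.4% of 14 reads in SAM replicate 2 and as 0 of 27 to 168 reads in the other 5 libraries. A CpG at 274 bases read as 23.9% of 414 reads in control replicate 1, as 0.302% of 331 in SAM replicate 3 and as 0 in the other 4.

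Within the UHRF1 window lie 2 further RefSeq starts, at 4910156 and 4910379. The 300 bases around the first averaged 0.118, 0.323 and 0.187% with SAM and 0.253, 0.316 and 0.0683% in controls over 28 CpGs, and 21 of its 40 CpGs that meet the read requirement were at 0 in every library listing them. Around the second, 24 CpGs averaged 0.210, 0.0386 and 0.363% with SAM, each below the control values of 1.23, 0.651 and 0.914%. That difference of -0.727 points (standard error 0.191) became -0.0639, with overlapping groups, without the 4 CpGs that reached 5% in a single library, all of them controls. With coverage weights it was -0.181. This stretch was singled out after its values were seen. Separate groups occurred in 9.45% of all 3 kb tiles and 8.32% of those with a mean under 10%, all longer than this stretch.

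The UHRF1 promoter shown first holds the letters TTTCGCGC, a form of the E2F motif bound by regulators of S-phase genes, at -160 from the start at 4910156. Searched on both strands, those letters occur in 0.515% of 35116 promoters of the same length. DNMT1's sequence also holds them once, but it was not placed and so has no levels there. Both CpGs of the UHRF1 match were listed in all 6 libraries, with a mean of 0.926 and 0.0600%. The highest single value was 5.56% of 18 reads in SAM replicate 2. GGGCGG, the GC box, occurs 3 times in that promoter (45% of promoters hold it on either strand), and its 3 CpGs were at 0 in every library that lists them, at 22 to 324 reads. CCAAT occurs there 2 times and in 34.6% of promoters. A match of letters is a description and not a measured binding site.

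Only windows of the de novo methyltransferases held CpGs at 5% or more in every library that lists them. There were 4 at the internal DNMT3A start, 3 at DNMT3B and 0 at the upstream DNMT3A start. The upstream DNMT3A start (2:25565459, minus strand) had 107 CpGs, 91 to 1490 bases downstream, and 91 of them were under 5% in every library. Over 70 CpGs, SAM replicates 1 to 3 had 0.0944, 0.486 and 0.270% and control replicates 1 to 3 had 0.180, 0.665 and 0.510%. The groups overlapped, with a difference of -0.168 points (standard error 0.183, exact permutation p = 0.40). Its highest mean was at 756 bases, where 58.8% of 17 reads were methylated in SAM replicate 2, 15.4% of 13 in control replicate 2, 1.89% of 53 in control replicate 1 and 0 of 74 in SAM replicate 3.

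The low stretch at this start ran past the window. From 1512 to 1874 bases, 36 CpGs had a mean of 1.52%, the highest of them at 5.84%. From 1958 to 2087 bases, 9 CpGs had a mean of 26.7%, ranging from 9.03 to 46.3%. Over those 9 the mean was 25.3% in SAM replicate 1, 26.0% in SAM replicate 3, 27.8% in control replicate 1 and 24.2% in control replicate 3. SAM replicate 2 listed 5 of them at 39.4% and control replicate 2 listed none. Single CpGs there varied between libraries, and at 1979 bases the level was 3.70% in SAM replicate 1, 0 in SAM replicate 3, 25% in control replicate 1 and 7.41% in control replicate 3. The bounds of these 2 zones were set after the values were seen.

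The internal DNMT3A start (2:25475184, minus strand), which lies inside the gene and serves a shorter transcript, had the highest window mean with equal weight per CpG. Its 22 CpGs lay from -399 to 1232 bases, and 6 of them were under 5% in every library. Over the 8 in all 6 libraries, SAM replicates 1 to 3 had 9.51, 9.70 and 4.33% and control replicates 1 to 3 had 14.5, 7.53 and 7.18%. The groups overlapped at a difference of -1.88 points (standard error 2.96, exact permutation p = 0.60), and without control replicate 1 it was 0.495 points. With all 22 CpGs it was 8.73 points, 22.6% against 13.8%, but each library was then averaged over different CpGs, and the groups still overlapped.

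Methylated CpGs lay on both sides of this start. The CpG at -314 read as 54.4, 48.0 and 20.5% for SAM replicates 1 to 3 and as 63.3, 33.3 and 8.57% for control replicates 1 to 3, on 50 to 312 reads. Replicate 3 of each group was lowest, and the groups overlapped widely. The CpG at -345 ranged from 0% of 66 reads in SAM replicate 1 to 31.6% of 98 reads in control replicate 1. Nearer the start, CpGs at -132, -135 and -141 were at or under 0.236% in all 6 libraries, while on either side of them -127 reached 12.6% in SAM replicate 1 and -163 reached 27.9% in control replicate 3. At the far side, CpGs at 1219 and 1232 bases downstream were at 93.3 to 100% in the 4 libraries that list them, at 11 to 26 reads each.

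Between these, neighbouring CpGs of the internal start differed by library. At 245, 250 and 255 bases downstream, SAM replicate 3 read as 37.0, 40.2 and 43.3%, on 127 to 138 reads. SAM replicate 1 read as 0, 100 and 0% on 29 reads each, and control replicate 1 as 73.9, 0 and 0%, on 66 to 69 reads. Control replicate 2 was at 0 for all 3, on 13 to 17 reads, and control replicate 3 reached 10.4% at the middle one alone. The CpG at 247 bases, between the first 2 of these, was at 0 in all 5 libraries that list it, as was the CpG at 236.

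DNMT3B (20:31350191, plus strand) had the most CpGs at 5% or more in all 6 libraries, with 3. It had 66 CpGs from -518 to 1062 bases, 56 of them under 5% in every library, and the 24 in all 6 averaged 4.26, 3.97 and 4.25% with SAM. Control replicates 1 to 3 had 4.42, 4.24 and 5.16%. SAM replicate 1 lay just above control replicate 2, so the groups overlapped, with a difference of -0.447 points (standard error 0.295, exact permutation p = 0.30).

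That level came from 3 CpGs. The CpG at -489 was methylated in 59.0, 54.7 and 59.0% of reads with SAM and 57.9, 55.3 and 62.4% in controls, on 197 to 3871 reads. Its neighbour at -518 read as 8.37, 7.001 and 7.93% with SAM and 7.54, 9.21 and 8.48% in controls, on 228 to 4193 reads. The groups overlapped at both, and the step between these adjacent CpGs stood in all 6 libraries. The third, 602 bases downstream, was at 21.3, 24.6 and 25.9% with SAM and 24.2, 7.14 and 24.6% in controls, where the low value in control replicate 2 rests on 28 reads.

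Without those 3 CpGs, the other 21 averaged 0.643, 0.427 and 0.441% with SAM, below each control value of 0.786, 1.44 and 1.35%. This subset was formed after the values were seen and is given with no test. The difference of -0.686 points became -0.0523, with overlapping groups, when the CpGs at 5% or more in a single library were also left out. A CpG at -63 was raised in 3 of 5 libraries, at 28.1% in SAM replicate 1, 39.8% in control replicate 2 and 52.6% in control replicate 3, and at 0 of 140 and 84 reads in SAM replicate 3 and control replicate 1.

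**Figure D2:**
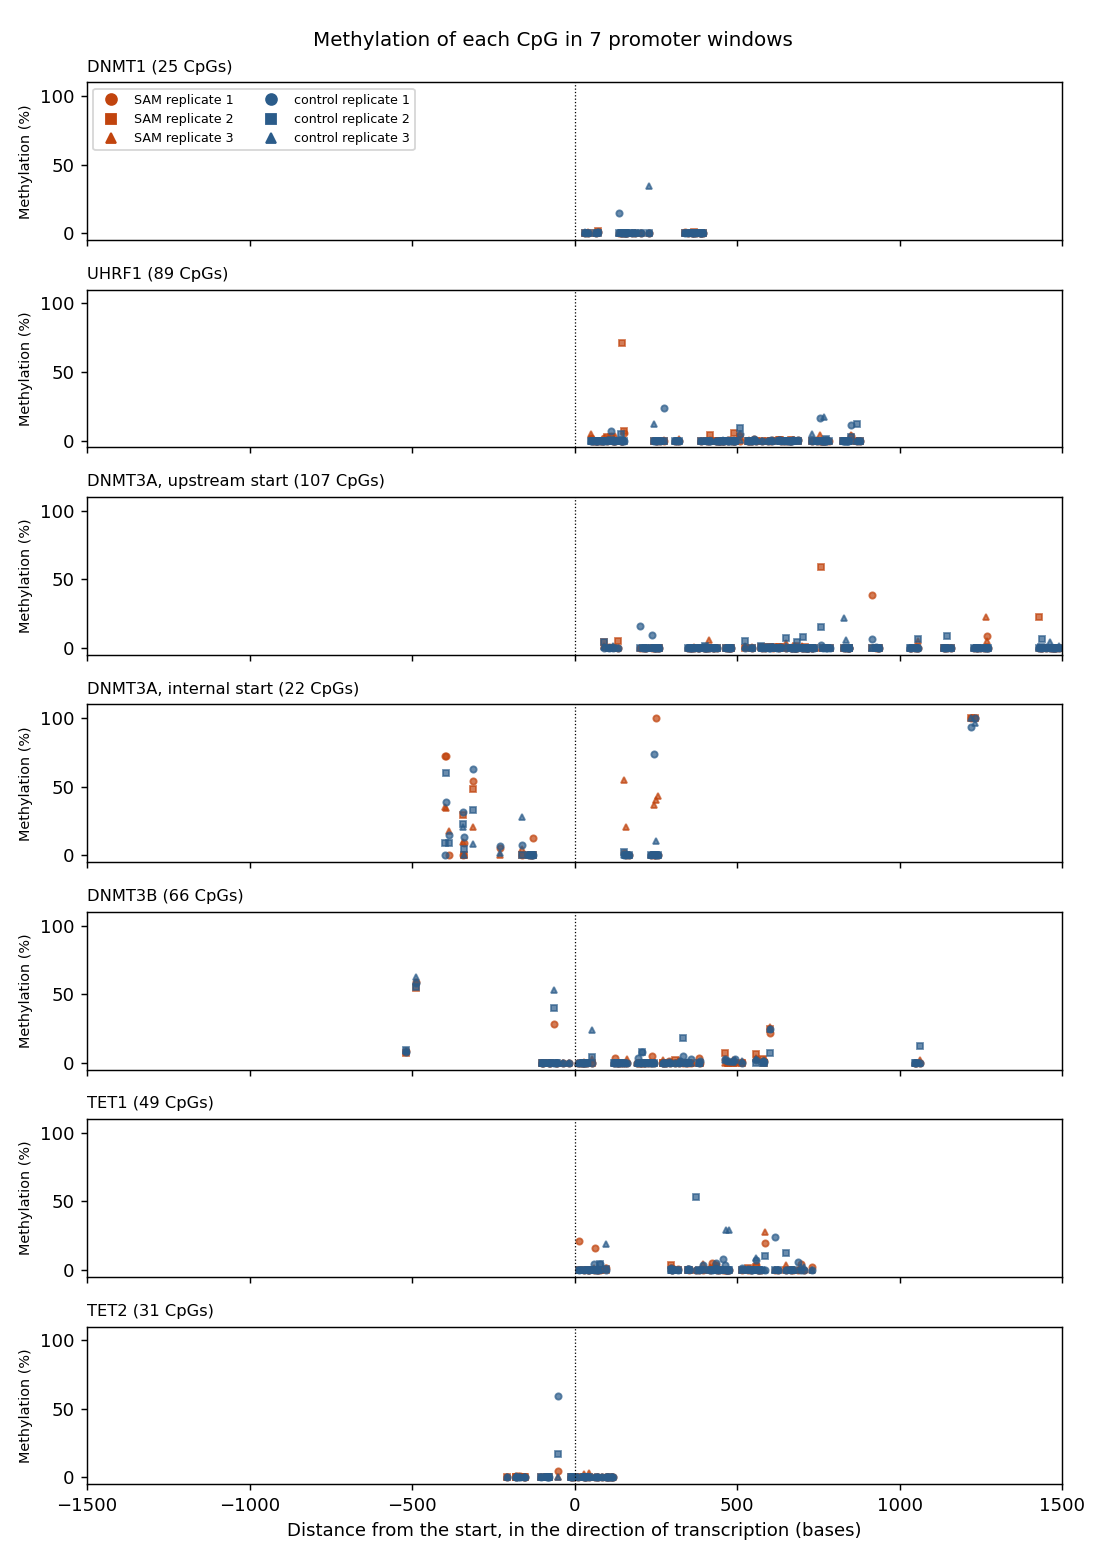
Methylation in percent of each CpG against its distance in bases from the start, in the direction of transcription, for 7 windows, with 1 point per CpG and library. Most points lie at 0, the recurring methylation is at -489 and 602 bases in DNMT3B and on both sides of the internal DNMT3A start, and other raised points belong to 1 or a few libraries.

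The TET promoters, where the demethylating enzymes are encoded, were low. TET1 (10:70320117, plus strand) had 49 CpGs, 14 to 729 bases downstream, of which 35 were under 5% in every library. Over 30 CpGs its level was 1.998, 0.226 and 0.809% for SAM replicates 1 to 3. Control replicates 1 to 3 had 1.03, 0.583 and 0.985%. SAM replicates 1 and 2 had the highest and the lowest value of all 6 libraries. The difference was 0.144 points (standard error 0.540, exact permutation p = 0.90), and -0.349 without SAM replicate 1.

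TET1 had 12 CpGs that reached 5% in 1 library only, of the 45 over all windows. The CpG at 14 bases, nearest to the start, read as 21.1% of 57 reads in SAM replicate 1 and as 0 of 51 to 260 reads elsewhere. The pair at 465 and 474 bases read as 29.5% of 105 and 29.0% of 107 reads in control replicate 3 and as 0 of 59 to 625 reads in the other 4 libraries. The highest mean was at 374 bases, with 52.9% of 17 reads in control replicate 2 and 0 in the other 3 libraries that list it. At 617 bases, control replicate 1 read as 46.2% of 65 plus-strand reads and 0 of 58 minus-strand reads.

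TET2 (4:106067842, plus strand) was at 0 in 5 of 6 libraries over 7 CpGs. SAM replicate 3 had 0.777%, from 2 methylated reads of 309, and the difference of 0.259 points (standard error 0.259, exact permutation p = 1.0) is that library alone. Summed over the 7 CpGs, control replicates 1 to 3 had 0 of 1407, 96 and 226 reads methylated. Taken as independent, these would allow levels of up to 0.213, 3.125 and 1.33%. The medians were only 208, 14 and 36 reads per CpG, and a read over several CpGs counts at each, so these limits can be too low. Of its 31 CpGs, from -208 to 119 bases, 25 were at 0 in every library listing them. The highest was a CpG at -50, with 59.6% of 47 reads in control replicate 1, 17.2% of 29 in control replicate 2, 4.76% of 21 in SAM replicate 1 and 0 in SAM replicate 3 and control replicate 3. SAM replicate 2 did not list it.

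TET3 had no CpG with enough reads in the window at 2:74273450, where 3 CpGs were listed in any library. Its RefSeq starts placed at 2:74212037 and 2:74229819 lie outside the chosen windows and are described here in their place. Around the first, 17 CpGs averaged 4.15, 0.351 and 0.607% with SAM and 0.187, 0 and 1.43% in controls. SAM replicate 1 alone was high, and the difference of 1.16 points (standard error 1.31) was -0.0605 without it. In that library the CpG at -65 read as 64.7% of 17 reads, against 0 of 54 to 217 reads in the other 5. Without the 2 CpGs raised in a single library the difference was 0.307 points and every SAM library lay above every control library, at levels under 1%. That subset was formed after the values were seen. Separate groups occurred in 9.45% of all 3 kb tiles and 8.32% of those with a mean under 10%, all longer than this stretch.

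Around the second TET3 start, 12 CpGs averaged 1.82, 1.33 and 0.625% with SAM and 0.783, 4.62 and 1.22% in controls. Control replicate 2 was the highest, and the difference of -0.949 points (standard error 1.26) was 0.257 without it. The CpG at -174 reached 5% in 4 libraries, at 8.08% of 99 reads in SAM replicate 1, 5.11% of 137, 31.6% of 19 and 11.5% of 104 in control replicates 1 to 3. It was at 0 of 15 and 35 reads in SAM replicates 2 and 3. Of the 14 CpGs meeting the read requirement around this start, 7 were under 5% in every library.

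Over all 389 CpGs, 204 (52.4%) were at 0 in every library that lists them and 318 (81.7%) were under 5% in every one. Another 45 (11.6%) reached 5% in a single library, 26 did so in 2 or more, and 7 in every library that lists them. Among CpGs with a median under 5%, 54.4% of the 375 in the windows and 52.2% of 339783 in the data were at 0 throughout, and 12% against 15.3% were raised in a single library. Both shares in the windows were close to those of low CpGs elsewhere, and they carry no test.

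The 45 single-library CpGs ran from 5.0 to 71.4%, with a median of 12.6%, and in 28 of them each other library was at 0. At under 20 reads, 1 methylated read is enough to reach 5%, and some of the 45 have so few. SAM replicates 1 to 3 held 4, 6 and 6 of them, and control replicates 1 to 3 held 11, 9 and 9. As a share of the low CpGs each library lists, this was 1.12, 2.22 and 1.62% with SAM and 2.95, 2.92 and 2.51% in controls, without overlap between the groups. Over all low CpGs the shares were 2.44, 2.49 and 3.49% with SAM and 2.66, 3.92 and 2.45% in controls, and the groups overlapped. The pattern in the windows was noticed in the values and was not tested. Only 5 of the 45 were read on both strands, and in 3 of these one strand was under 1%.

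**Figure D3:**
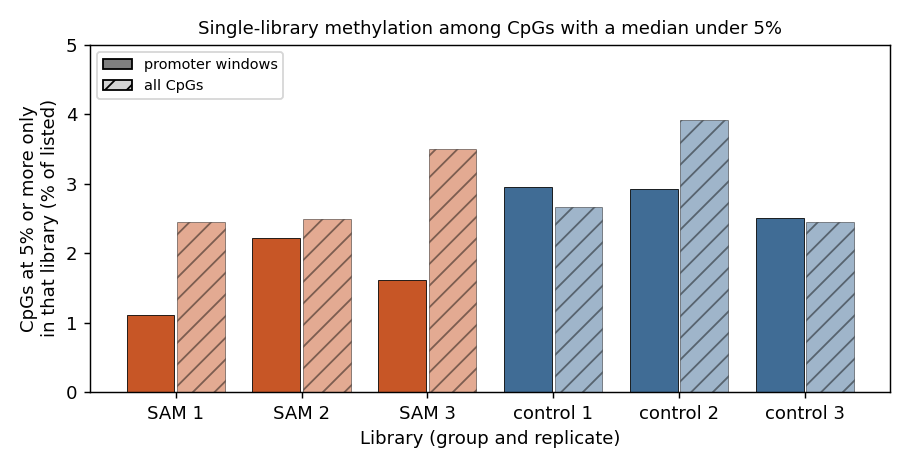
Percent of the low CpGs (median under 5%) listed by each library that reached 5% in that library and in no other, with 1 solid bar per library for the promoter windows and 1 hatched bar for all CpGs. The windows' bars run from 1.12 to 2.22% with SAM and from 2.51 to 2.95% in controls, while the bars for all CpGs overlap between the groups.

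**Figure D4:**
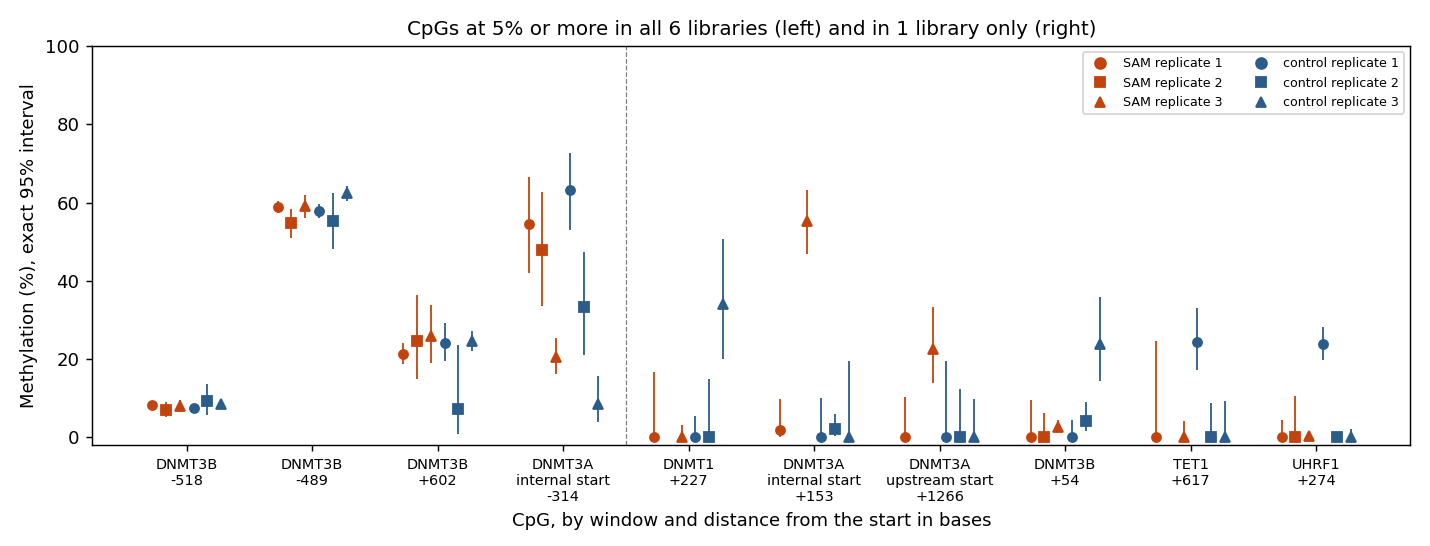
Methylation in percent of 10 CpGs, named by window and distance in bases from the start, with 1 point per library and its exact 95% binomial interval. The 4 on the left reached 5% in all 6 libraries, such as 54.7 to 62.4% at -489 in DNMT3B, and the 6 on the right, 1 from each of 6 windows, did so in 1 library each, such as 23.9% in control replicate 1 at 274 in UHRF1.

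No single CpG of the windows passed the test. This does not show an absence of change, because edgeR recovered no changed CpG in simulated data with a spread between libraries. In edgeR's quasi-likelihood test over 490928 CpGs, 0 of the 185 member CpGs tested had an adjusted p under 0.05, and 0% of all CpGs were called. At an unadjusted p under 0.05 there were 8 of 185 members and 14429 of 490928 CpGs. With limma there were 5 of 185 and 18045 of 490928, with 0 members called. The members' share was thus above that of all CpGs with edgeR and below it with limma. In edgeR it was also above with the coverage batch as a term, at 14 of 185 and 16828 of 490928. With a replicate block it was above too, at 21 of 185 and 20710 of 490928. At a minimum of 20 reads the shares were close, at 4 of 160 and 9126 of 358354. Neighbouring CpGs can share reads, and the shares carry no test. The other 204 members had no methylated read and could not enter. The groups did not overlap at 5 of 211 member CpGs in all 6 libraries, against 4.9% of 336571 CpGs. Among CpGs with a mean under 10% it was 5 of 206, a share of 2.43%, against 1.99% of 171424, so the members' share was near the background.

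At all 5, each SAM library was above each control library, at low levels. Of the 16486 CpGs with separate groups in the data, SAM was above in 9099 and below in 7387. The CpG of DNMT3B 558 bases downstream had 2.83, 6.06 and 3.52% with SAM and 1.61, 0 and 2.79% in controls, a difference of 2.67 points. TET1 at 295 bases had 1.68, 3.41 and 1.55% with SAM and 1.49, 0 and 0.806% in controls, a difference of 1.45 points. The other 3 lay within 24 bases of each other at the upstream DNMT3A start. Their differences were 0.462 points at 600 bases, 0.437 at 576 and 0.246 at 585, on 241 to 7394 reads per library. At all 5, control replicate 2 was at 0, on 18 to 329 reads, and those 3 neighbours can be covered by the same reads.

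Beyond the windows, the nearest highly methylated CpG listed lay at distances that differed between genes. Outside the window and within 20 kb of the TET1 start, 5 CpGs in all 6 libraries averaged 98.0%, and the 9 around the internal DNMT3A start averaged 98.4%. Outside the window and downstream, the nearest CpG over 80% was 4344 bases from the internal DNMT3A start and 5796 from the upstream one. It was 9030 bases from UHRF1, 15516 from TET1 and 17592 from DNMT3B. Inside the internal DNMT3A window, CpGs at 1219 and 1232 bases already had means of 98.3 and 99.0%. UHRF1 was still low outside its window, at 0.403% over 5 CpGs. These distances are to CpGs that meet the read requirement, not only those in all 6 libraries, and depend on which CpGs are listed. In this zone none met it for DNMT1 and TET2, and none was listed in all 6 libraries for DNMT1, TET2 and TET3. At TET1 the 5 flanking CpGs ranged from 97.0 to 98.7% over libraries, and SAM and control overlapped.

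**Figure D5:**
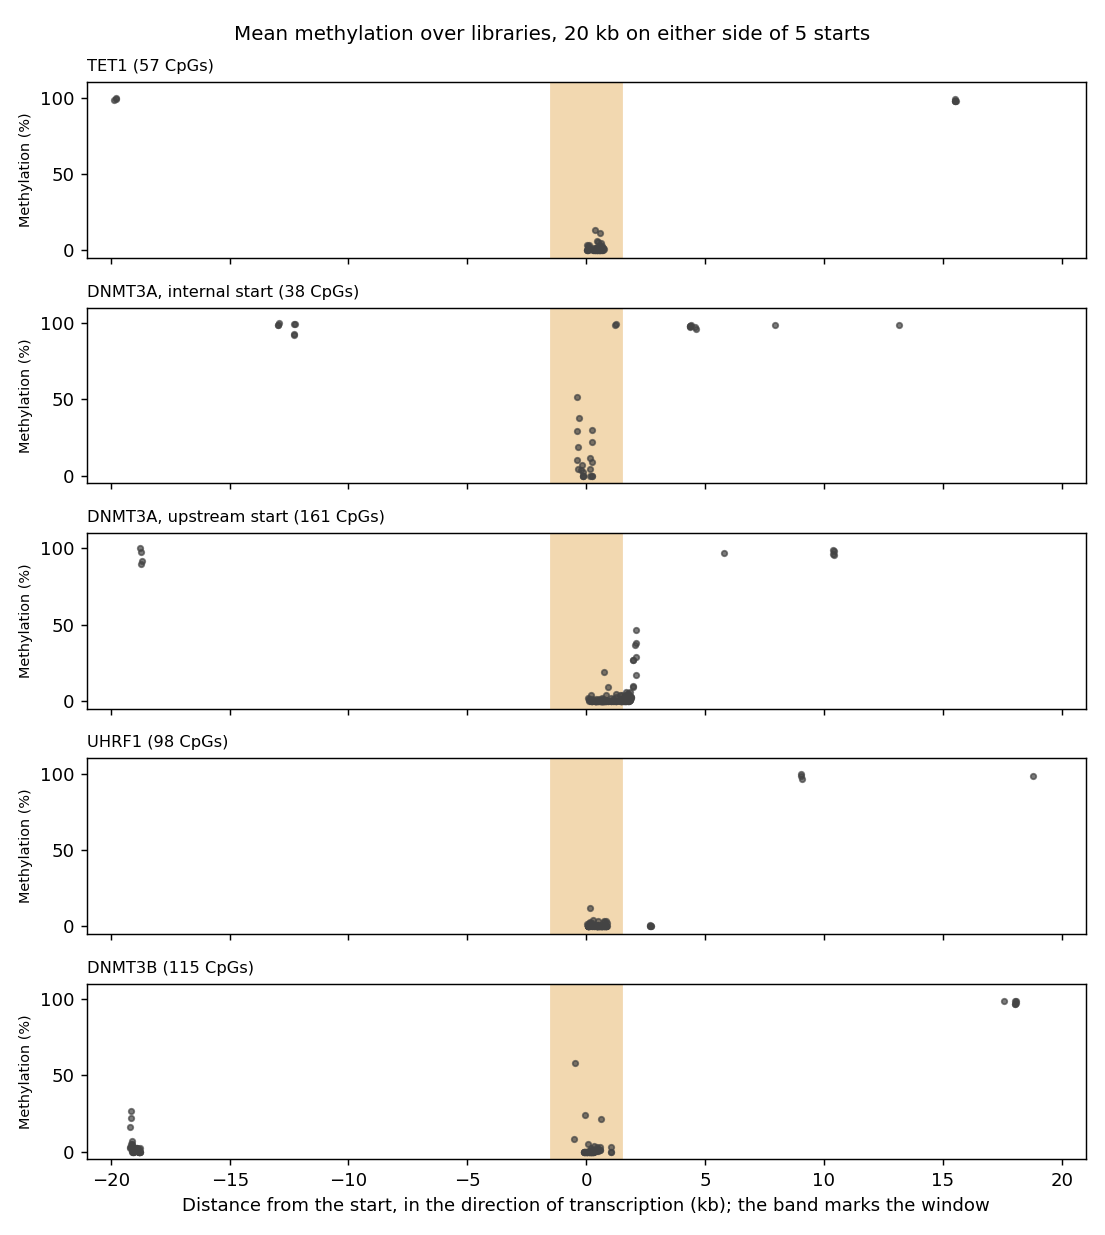
Mean methylation in percent over libraries of each CpG within 20 kb of 5 starts, against distance in kb in the direction of transcription, with the 1.5 kb window on either side shaded. Most points inside the bands are near 0, with the highest means at DNMT3B and the internal DNMT3A start and single CpGs at 11.9 to 19.0% in UHRF1, TET1 and the upstream DNMT3A window, and at the upstream DNMT3A start they rise to 46.3% near 2 kb.

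Of 26 other genes of the pathway listed for comparison, 22 had a promoter sequence and 2 could be placed. USP7, a deubiquitinase that stabilises DNMT1 and UHRF1, averaged 0.0990% over its promoter, and MBD2, a reader of methylated CpGs, averaged 0.0917%. SAM and control overlapped in both, so 0 of 2 had separate groups in either direction. Sequences of PCNA, PARP1, ZBTB38 and CXXC5 matched at a single position with a smaller share listed, as did the internal DNMT3A and first TET3 starts. PCNA averaged 0.427% over 8 CpGs and 1 CXXC5 start 1.20% over 5, and the groups overlapped in both. The others had no CpG in all 6 libraries.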

How the data were processed

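Genomic DNA of 6 PC-3 libraries was bisulfite sequenced. Each deposited list gives, per the file headers, a cytosine's coverage (a read count) and which percent of those reads had C or T. The submitters' processing notes name CASAVA 1.8.2, FastQC 0.10.0, Bismark 0.7.4, methylKit 0.5.3 and hg19, with no role or order. Not given in the sources used here are the library type, read filters and duplicate removal. The lowest coverage in the deposited lists was 10 reads.

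Methylated reads were coverage times percent C, rounded, and both strands of a CpG were summed. Coverage summed over listed positions was 179379782, 36220663 and 120492978 for SAM replicates 1 to 3 and 150331703, 33056018 and 183523792 for control replicates 1 to 3. A read counts at each position it covers, so these are not numbers of sequenced reads. Windows were compared by an exact two-sided permutation test. CpGs, and 3 kb tiles together with the windows (at least 5 CpGs in all 6 libraries), were compared by edgeR 4.0.16 (quasi-likelihood test) in R 4.3.3, using unmethylated and methylated counts and a term for each library and Benjamini-Hochberg adjustment over all features. CpGs with 0 methylated or 0 unmethylated reads were left out. limma 3.58.1 ran on log2 ratios after adding 1 read. The edgeR fits were also run on simulated data, where they recovered changed features under counting error alone but none once a spread between libraries was added. The changed features were taken at intermediate levels, whereas most CpGs of the windows lie near 0. The rest used scipy 1.17.1, pandas 2.3.3 and numpy 2.4.6 in Python 3.11.15. Exact 95% Clopper-Pearson intervals and a limit of 3 counts at 0 were used.

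Promoter sequences are from RefSeq (GRCh38.p14). They were placed in hg19 where at least 12 listed CpGs matched their CGs and each listed CpG fell on a CG. Exons, introns and UTRs were not used here. The members and lists were chosen with earlier results of these data known. The CpGs named are those past the threshold, up to 6 with separate groups and the largest differences, and the highest mean in each window. Others were named after their values were seen.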

Additional observations from a re-analysis of the deposited data

How the results depend on the processing

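No window passed the adjusted threshold in the edgeR and limma fits that could include it (5 to 7 windows each), and several differences changed sign. The settings of this paragraph other than 20 reads give differences with no test across features. With every CpG of the rule the differences were -0.650 points at DNMT1, 0.0563 at UHRF1, 0.261 at the upstream and 8.73 at the internal DNMT3A start, -0.733 at TET1 and -0.987 at TET2, over CpGs that differ between libraries. UHRF1 was 0.651 within 0.5 kb, DNMT3B was 0.0794 at 20 reads and 0.789 with coverage weights, and TET1 was -0.179 with coverage weights and -0.0847 on the minus strand. Chosen after seeing the data, leaving out CpGs at 5% or more in 1 library gave 0.0104 at the upstream DNMT3A start, 0.131 at DNMT3B and -0.0850 at TET1. The CpG of DNMT3B at -489 had 0.169 inside the coverage batches. The cause of these changes was not tested.

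Leaving out 1 library in turn gave -0.00754 to 0.0886 points at DNMT1, -0.427 to 0.206 at UHRF1, -0.304 to -0.0615 at the upstream and -3.16 to 0.495 at the internal DNMT3A start, -0.628 to -0.173 at DNMT3B, -0.349 to 0.537 at TET1 and 0 to 0.389 at TET2. It gave -2.58 to 0.9497 at the DNMT3B CpG, -8.64 to 50.2 at the CpG 756 bases from the upstream DNMT3A start, and -0.0605 to 1.84 and -1.66 to 0.257 at the first and second TET3 start. With a replicate block, edgeR called 1 of 490928 CpGs, no member. An unadjusted edgeR p under 0.05 then came for 21 of 185 members and 20710 of all CpGs, against 8 and 14429 without the block. Between same-numbered libraries, deviations from the group means correlated over CpGs at -0.00791 to 0.00846. Such values cannot show whether the numbers pair the libraries, and replicate 2 had the fewest reads in both groups. Leaving out 1 library gave 0 to 8 called CpGs (4 without SAM replicate 2, 8 without SAM replicate 3), no member among them.

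Depth limits these values most in SAM replicate 2 and control replicate 2, where a window mean can rest on 1 CpG with few reads.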
